A study of Arabidopsis thaliana with 8 samples.

Results

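The UGT, GST, ALDH and SCPL genes of Arabidopsis thaliana encode enzymes that attach sugars or glutathione to small molecules, oxidise aldehydes, or belong to the serine carboxypeptidase-like proteins. They were followed in plants that overexpress PK12, a plant kinase of the LAMMER family, set against non-transformed plants. Members were the genes measured on the 10-day arrays whose symbol begins with one of those 4 family names followed by letters or digits, read only from cDNA clones (expressed sequence tags, ESTs) annotated to a single gene. This gave 37 members among 3517 named genes: 16 UGT, 8 GST, 7 ALDH and 6 SCPL genes, measured by 51 ESTs.

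Each array compared total RNA of PK12 overexpressors, in channel 2, with total RNA of non-transformed plants, in channel 1. The 2 ages were 21 days (4 arrays, named b100, b90, t100 and t90) and 10 days (4 arrays, named 56, 57, 60 and 61), both under long days. An array type with fewer ESTs was used at 21 days, so age and array type cannot be told apart. The labels state 4 repetitions at each age, with 2 independent biological experiments among them, but not which arrays belong to which experiment, so every p-value rests on variation among arrays, some of it technical. The promoter of the transgene, the number of lines and the organs harvested were not given in the sources used here.

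The values are log2 ratios of the channels, centred on each array and averaged over the ESTs of a gene. The sources name neither the dyes nor the numerator, so genes are placed by the sign of the ratio as deposited. A positive sign means more RNA in PK12 plants only if channel 2 was the numerator, and less RNA if it was the denominator. A ratio holds no level, so genes are compared only by their ratios, and in RNA of mixed cells fewer cells of a type and less RNA per cell cannot be told apart. A difference was called at a limma adjusted p under 0.05, with Benjamini-Hochberg adjustment over all genes tested, and means are given ± SD over 4 arrays.

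UGT enzymes move a sugar from a UDP-sugar onto hormones, phenolics, defence compounds and foreign chemicals, which changes their solubility, activity and storage. GST enzymes couple electrophiles to glutathione, and the tau and phi classes are the large plant classes known from herbicide detoxification. ALDH enzymes turn reactive aldehydes from amino acid, lipid and phenylpropanoid metabolism into acids. SCPL proteins share the fold of serine carboxypeptidases, and 1 branch of them, which holds the sinapate ester enzymes SNG1 and SNG2, transfers acyl groups instead of cutting peptides. The 6 SCPL members measured here lie outside that branch.

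At 10 days 4 of the 37 members were called, which is 10.8% of them. Among all 3517 genes tested 13.1% were called, so the families as a whole were called about as often as genes at large. On the positive side the called members were GSTU27, UGT72E2 and UGT76B1, against 8.05% of all genes called on that side, and on the negative side SCPL49, against 5.00% of all genes. No ALDH gene was called. With any 1 array left out 1 or 2 of the 4 calls remained past the threshold, and which ones is given beside each gene. Means lay on the positive side for 23 members (62.2%), and the same was true of 53.1% of all genes. The median of the members was 0.18 and their median absolute value 0.339, beside 0.04 and 0.320 for all genes. All 4 arrays lay on one side for 15 members (40.5%), near the 39.8% of all genes. Of these, 11 were positive and 4 negative, where 22.7% and 17.1% of all genes were. At an unadjusted p under 0.05 stood 11 members (29.7%) and 32.1% of all genes.

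**Figure D1:**
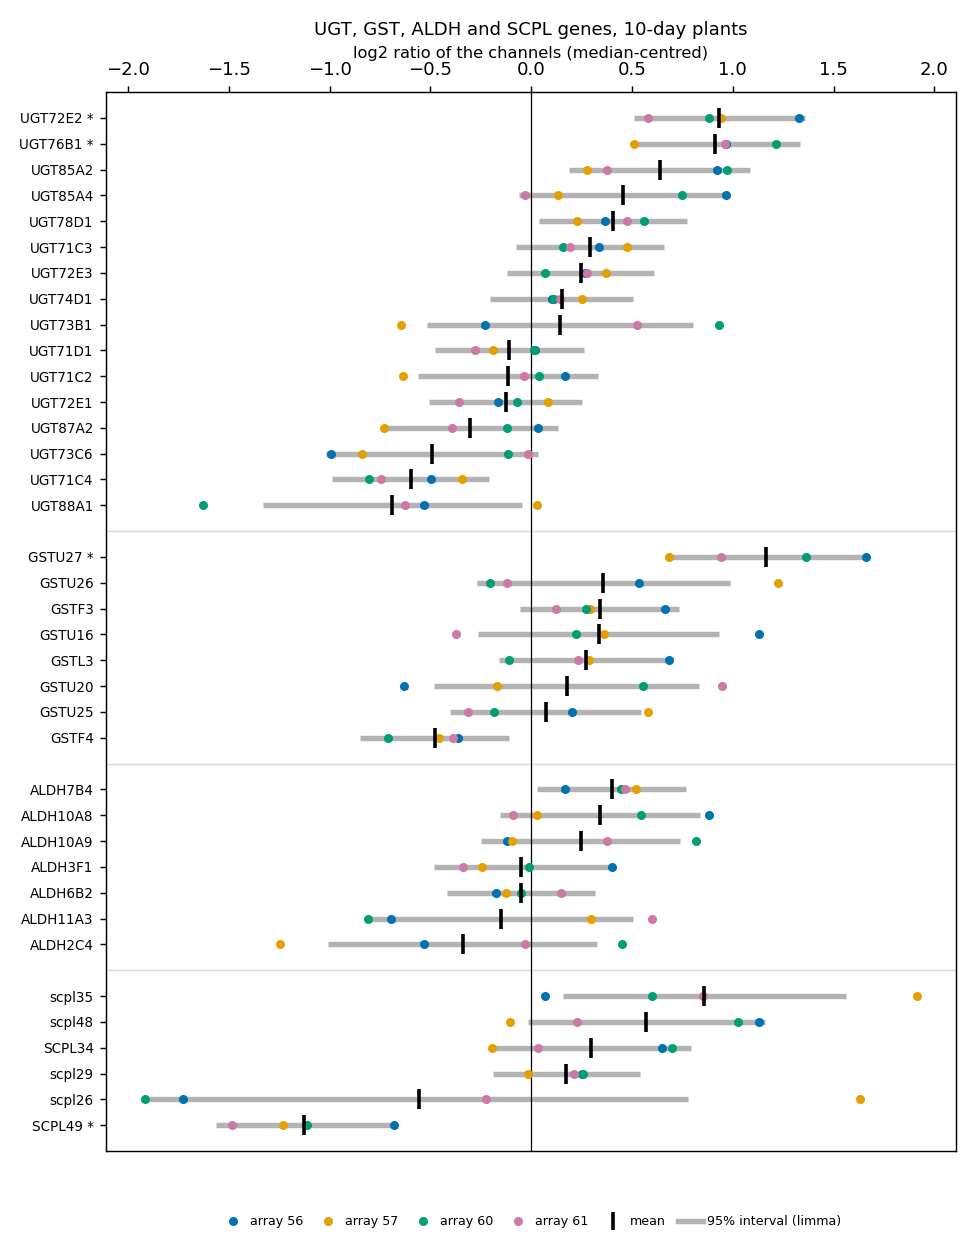
The log2 ratio of each of the 37 members at 10 days is plotted on the horizontal axis, with 1 row per gene grouped by family. Dots are the 4 arrays, bars are means, lines are 95% limma intervals, and an asterisk marks the 4 called genes, with GSTU27, UGT72E2 and UGT76B1 right of 0 and SCPL49 left of 0.

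The UGT72E genes encode the enzymes that glucosylate monolignols and the related aldehydes. UGT72E2 (AT5G66690) had log2 ratios of 1.33, 0.94, 0.88 and 0.58 on arrays 56, 57, 60 and 61. Every array lay well on the positive side, with a mean of 0.93 ± 0.31, a 1.91-fold ratio (limma adjusted p = 0.0218). The mean stayed between 0.80 and 1.05 with 1 array left out, but without array 56, 57 or 60 the adjusted p was 0.0748, 0.0653 or 0.0619. Its close relatives had smaller means. UGT72E3 had a mean of 0.25 ± 0.13 (adjusted p = 0.321) and all 4 arrays between 0.07 and 0.37. UGT72E1 had a mean of -0.13 ± 0.19 (adjusted p = 0.632), with array 57 alone above 0.

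Within arrays UGT72E2 exceeded UGT72E3 by 0.69 ± 0.33 and UGT72E1 by 1.06 ± 0.29 on the log2 scale, in both cases on 4 of 4 arrays. An exact two-sided sign-flip permutation test over 4 arrays cannot go below p = 0.125, and both differences had that value (adjusted p = 0.3 over the 12 pair comparisons run). The pairs were chosen after their values were known. Cross-hybridisation between close relatives on cDNA spots was not tested.

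UGT76B1 (AT3G11340), which glucosylates isoleucic acid, salicylate and N-hydroxypipecolate, had log2 ratios of 0.96, 0.51, 1.22 and 0.96 on arrays 56, 57, 60 and 61. All arrays were positive and array 57 was the lowest. The mean was 0.91 ± 0.29, a 1.88-fold ratio (limma adjusted p = 0.0219). Without array 56, 60 or 61 the adjusted p was 0.0756, 0.0734 or 0.0714, with means between 0.81 and 0.90. Tested against a 1.2-fold change in place of 0 (limma's treat), UGT76B1 had an adjusted p of 0.062 and UGT72E2 one of 0.0608. UGT85A2, measured by 3 ESTs, came next with 0.92, 0.28, 0.97 and 0.38 on the same arrays. Its 3 ESTs had means between 0.32 and 0.94, all on the positive side, but the gene mean of 0.64 ± 0.36 missed the threshold (adjusted p = 0.0673).

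At the other end of the family stood UGT88A1, UGT71C4 and UGT73C6. UGT88A1 had -0.53, 0.03, -1.63 and -0.63, and its mean of -0.69 ± 0.69 was the lowest of the UGT genes (adjusted p = 0.134), with array 60 far below the others. Without array 60 it was -0.38, above UGT73C6 at -0.62 and UGT71C4 at -0.53. UGT71C4 had -0.50, -0.35, -0.80 and -0.75, negative on all 4 arrays, and its mean of -0.60 ± 0.21 was just short of the threshold (adjusted p = 0.0558). In order of the deposited spot identifiers, the spots next to the EST of UGT71C4 also had a negative median, -0.39, the lowest around any member EST at this age. Whether that order follows position on the slide was not tested. With the median of the 36 spots on either side in that order removed (the local median) the mean of UGT71C4 was -0.21 (adjusted p = 0.494). UGT73C6, which glucosylates flavonols and brassinosteroids, had -0.995, -0.84, -0.12 and -0.01. Its negative mean of -0.49 ± 0.50 came mostly from arrays 56 and 57 (adjusted p = 0.178). The spots around the EST of UGT73C6 in identifier order had a median of -0.26, and with the local median removed its mean was -0.23 (adjusted p = 0.384).

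The gene beside UGT71C4 on the chromosome is UGT71C3, whose product glucosylates methyl salicylate. UGT71C3 lay on the positive side on all arrays, between 0.16 and 0.47, with a mean of 0.29 ± 0.14 (adjusted p = 0.248). The neighbours stood apart by 0.89 ± 0.07 (UGT71C3 minus UGT71C4), between 0.82 and 0.96 on the 4 arrays, with the smallest exact permutation p the design allows, 0.125. With the local median removed, a check added after seeing the data, the gap was 0.48 ± 0.69, ran between -0.40 and 1.04, and was positive on 3 of 4 arrays. GSTU25 and GSTU26 are also adjacent genes, and there the difference (GSTU26 minus GSTU25) was 0.29 ± 0.28, with GSTU26 higher on 3 of 4 arrays (exact p = 0.25), or 0.56 ± 0.31 with the local median removed.

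None of the remaining UGT genes was called. UGT78D1, a flavonol rhamnosyltransferase, was positive on every array, between 0.23 and 0.56, with a mean of 0.41 ± 0.14 (adjusted p = 0.125). UGT74D1, which glucosylates auxin, had the tightest set of values among the members, 0.10, 0.25, 0.11 and 0.14. Its mean of 0.15 was below the median of the spots around its EST in identifier order, 0.20. UGT85A4 had a mean of 0.45 ± 0.48 and array 61 just below 0. UGT73B1 reached 0.93 on array 60 and -0.65 on array 57, so its mean of 0.14 ± 0.71 says little. UGT71D1, UGT71C2 and UGT87A2, the last known from flowering-time control, had means of -0.11, -0.12 and -0.30. The median of all 16 was 0.15, but -0.02 with the local median removed, 0.0235 without array 60, 0.0855 without array 61 and 0.203 without array 56. The 4 UGT71 genes had a median of -0.11. Of the 16 UGT genes 9 (56.2%) lay on one side on all 4 arrays, against 39.8% of all genes.

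GSTU27 (AT3G43800), a tau-class gene, had the highest mean of all 37 members. Its log2 ratios were 1.66, 0.68, 1.36 and 0.94 on arrays 56, 57, 60 and 61. All 4 were positive and the mean of 1.16 ± 0.43 was a 2.24-fold ratio (limma adjusted p = 0.018). Without array 56 or 60 the adjusted p was 0.0622 or 0.057, with means of 0.996 and 1.10. The other tau-class genes had positive means as well, but with arrays on both sides of 0.

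GSTU26 reached 1.22 on array 57 and was at -0.20 and -0.12 on arrays 60 and 61 (mean 0.36 ± 0.66, adjusted p = 0.402). GSTU16 ran between -0.38 and 1.13, with a mean of 0.33 ± 0.62. GSTU20, whose product binds the jasmonate-conjugating enzyme JAR1, was negative on arrays 56 and 57 and positive on arrays 60 and 61, at 0.56 and 0.94 (mean 0.18 ± 0.71). GSTU25, known for conjugating the explosive TNT, went the opposite way, with 0.20 and 0.58 on arrays 56 and 57 and -0.18 and -0.31 on arrays 60 and 61 (mean 0.07 ± 0.40). The 5 tau-class genes had a median of 0.33.

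The phi class split. GSTF3, measured by 2 ESTs, was positive on all arrays, at 0.67, 0.29, 0.27 and 0.12, with a mean of 0.34 ± 0.23 (adjusted p = 0.21). GSTF4 was negative on all arrays, at -0.36, -0.46, -0.71 and -0.39, with a mean of -0.48 ± 0.16 (adjusted p = 0.086). GSTF4 was the only GST gene with a negative mean. GSTL3, of the lambda class, which acts as a thiol transferase, had a mean of 0.27 ± 0.32 and was negative on array 60 only. On single arrays the median of the 8 GST genes was 0.60, 0.33, 0.06 and 0.00 on arrays 56, 57, 60 and 61, so the family's positive median of 0.30 was carried by arrays 56 and 57.

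No ALDH gene was called, and their means ran between -0.34 and 0.40. ALDH7B4, the plant antiquitin, had 0.17, 0.52, 0.44 and 0.47, the only ALDH gene on one side on all arrays (mean 0.40 ± 0.16, adjusted p = 0.133). ALDH10A8 and ALDH10A9 oxidise aminoaldehydes, including betaine aldehyde. ALDH10A8 had 0.88, 0.03, 0.54 and -0.09 (mean 0.34 ± 0.45), while ALDH10A9 had -0.12, -0.10, 0.82 and 0.38 (mean 0.24 ± 0.45). With ESTs tested on their own, 1 of the 3 ESTs of ALDH10A9 passed the threshold, with a mean of 0.81 and arrays between 0.60 and 1.30 (adjusted p = 0.0338). Of all 11956 ESTs tested, 2031 passed. The other ESTs of ALDH10A9 had means of 0.38 and -0.46.

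ALDH2C4, the REF1 enzyme that makes sinapate and ferulate from their aldehydes, had the lowest mean of the family, -0.34 ± 0.73 (adjusted p = 0.456). Its arrays lay at -0.53, -1.25, 0.45 and -0.03 and so straddled 0. Without array 57 its mean was -0.0366, above ALDH11A3 at -0.30, and without array 60 it was -0.60. ALDH11A3, the non-phosphorylating glyceraldehyde-3-phosphate dehydrogenase, had -0.70, 0.30, -0.81 and 0.60 (mean -0.15 ± 0.71). ALDH6B2, the methylmalonate-semialdehyde dehydrogenase of valine breakdown, stayed near 0 with a mean of -0.05 ± 0.14, and ALDH3F1 had the same mean with an SD of 0.33. The 3 ALDH genes ALDH10A9, ALDH2C4 and ALDH6B2 were also the only members whose separate ESTs had 10-day means on both sides of 0. The family median was -0.05, or 0.02 with the local median removed or with medians over ESTs. Without array 56, 57, 60 or 61 it was 0.03, 0.02, 0.05 or 0.05. It stayed negative with scaling between arrays (-0.04) and quantile normalization (-0.03). The ESTs of the 3 genes ran between -0.46 and 0.81, between -0.81 and 0.13, and between -0.67 and 0.41.

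SCPL49 (AT3G10410) had the lowest mean of all 37 members and was the only one called on the negative side. Its log2 ratios were -0.68, -1.23, -1.11 and -1.48 on arrays 56, 57, 60 and 61. All arrays were negative, and the mean of -1.13 ± 0.34 was a 2.18-fold ratio (limma adjusted p = 0.0157). Without array 57 or 61 the adjusted p was 0.0532 or 0.0553, with means of -1.09 and -1.01. The 2 ESTs behind it differed. One EST had a mean of -2.09, with arrays between -3.08 and -0.83, and was called when ESTs were tested on their own (adjusted p = 0.01). The other had a mean of -0.16, with arrays between -0.53 and 0.28 (adjusted p = 0.63), so the call of SCPL49 rests on 1 EST. The other called members, GSTU27, UGT72E2 and UGT76B1, were measured by 1 EST each, so their calls also rest on 1 EST.

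**Figure D2:**
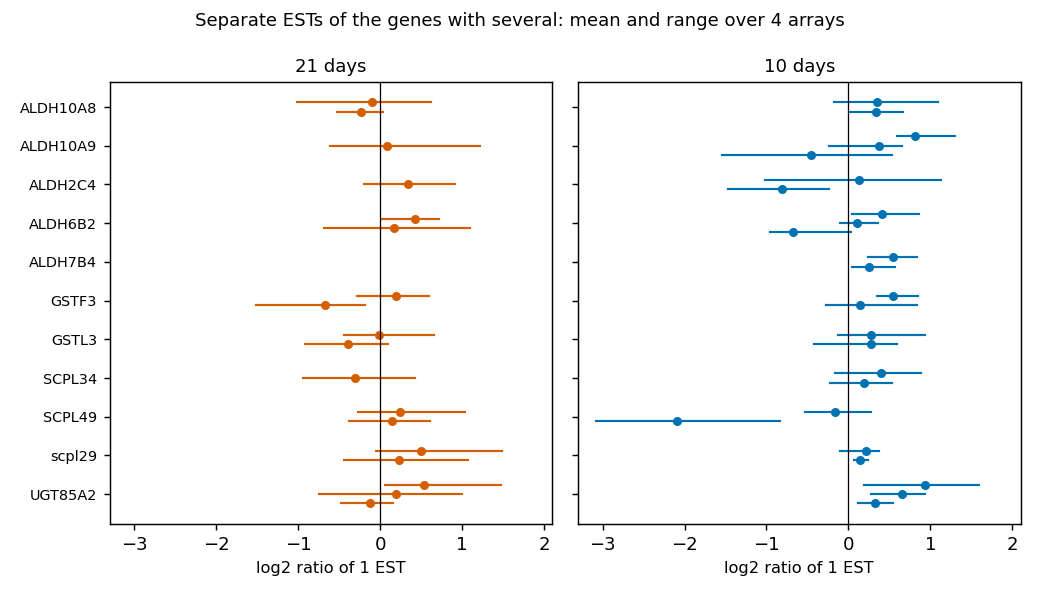
Separate ESTs of the 11 members with more than 1 EST are plotted as log2 ratios, at 21 days in the left panel and at 10 days in the right panel, with a point for the mean and a line for the range over 4 arrays. The ESTs of SCPL49 lie at -2.09 and -0.16 at 10 days, and those of ALDH10A9, ALDH2C4 and ALDH6B2 fall on both sides of 0.

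The gene scpl48, which belongs with SCPL49 to the same small clade, had 1.13, -0.10, 1.03 and 0.23, with a mean of 0.57 ± 0.60 (adjusted p = 0.167). It exceeded SCPL49 by 1.70 ± 0.42 on 4 of 4 arrays (exact permutation p = 0.125, adjusted p = 0.3 over the 12 pair comparisons). The SCPL49 mean in this gap averages its ESTs at -2.09 and -0.16, which differed. The gene scpl35 was positive on all arrays but very unevenly, at 0.07, 1.91, 0.60 and 0.85 (mean 0.86 ± 0.78, adjusted p = 0.0986). The widest values of any member were those of scpl26, at -1.73, 1.63, -1.92 and -0.22. Its mean of -0.56 ± 1.65 is therefore uninformative, with a 95% interval between -1.89 and 0.78. The median of the 6 SCPL genes was 0.24. SCPL34 had a mean of 0.30 ± 0.45, and scpl29 a mean of 0.17 ± 0.13 with array 57 just below 0.

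Arrays resembled each other to different degrees. Over the 37 members the correlation was 0.72 for arrays 56 and 60, 0.68 for 60 and 61, 0.43 for 57 and 61, 0.34 for 56 and 61, 0.24 for 56 and 57 and 0.04 for 57 and 60. Over all genes the same pairs of arrays had 0.61, 0.50, 0.61, 0.31, 0.49 and 0.23. These r values run across genes that share the arrays and are a description only. For 19 members (51.4%) arrays 56 and 60 both lay above or both below arrays 57 and 61, which held for 50% of all genes. For 16 members (43.2%), among them GSTU20, GSTU25, GSTU26 and UGT73C6, arrays 56 and 57 stood apart from 60 and 61 in this way, against 39.6% of all genes. Arrays 56 and 61 did so from 57 and 60 for 2 members (5.41%), GSTF4 and UGT72E1, against 10.3% of all genes.

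The size of ratio that 4 arrays could resolve was modest. The 95% half-width of a member's mean at 10 days was between 0.354 and 1.34, with a median of 0.447, and the whole interval lay within a doubling for 26 of the 37 members. These intervals are not adjusted for the number of genes. They also treat the 4 arrays as independent, though the labels state 2 independent experiments, so they may be too narrow. The intervals lay wholly on one side of no change for 11 members, of which 4 were called. A change smaller than about the half-width was not detectable here, and some larger ones were not called either. A missed threshold does not show that a gene was equal in both kinds of plant.

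Markers of organs were on the same arrays. All 5 measured green-tissue genes of the 11 listed were called on the negative side at 10 days, RCA at -1.94, PRK at -1.43, LHCB4.2 at -1.18, LHCB4.1 at -0.80 and SBPASE at -0.70. Among all genes 5.00% were called on the negative side and 8.05% on the positive side at that age. Of the 8 root genes listed, 3 were measured and had negative means, with BGLU21 called at -0.65 ± 0.16 (adjusted p = 0.04). Of the 10 seed genes listed, 2 were measured: PAP85 was called at 2.88 ± 2.20 (adjusted p = 0.0485) and AT3G01570 stood at -0.09. At 21 days none of these genes was called and the green-tissue median was -0.20. Whether the organ makeup of the samples has a part in the ratios of the enzyme families was not tested.

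Around the families, few other genes of the same pathways were measured. Of 12 listed genes for glutathione supply and recycling, 2 were measured at 10 days and 1 was called. GR1, the glutathione reductase of cytosol and peroxisomes, had all arrays between 0.74 and 1.17 (mean 1.03 ± 0.20, limma adjusted p = 0.0157). GR, the reductase of plastids and mitochondria, had all arrays between -1.26 and -0.29 (mean -0.70 ± 0.42, adjusted p = 0.0622). The reductases thus lay on opposite sides, and GR1 exceeded GR by 1.73 ± 0.41 on 4 of 4 arrays (exact permutation p = 0.125). At 21 days GR1 had a mean of 0.07 and GR one of 0.13, neither called.

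Of 12 genes for aldehyde production and fermentation 3 were measured and none called, between ACS, the acetyl-CoA synthetase, at 0.52 ± 0.51 (adjusted p = 0.161) and AT3G43670, annotated with the copper amine oxidases, at -0.34 ± 0.07 (adjusted p = 0.173). From the 14 general phenylpropanoid genes HCT, the shikimate hydroxycinnamoyl transferase, was measured and had a mean of 0.34 ± 0.21 (adjusted p = 0.203). The flavonoid list (12 genes) and the sinapate ester list (9 genes) were represented by UGT78D1 and ALDH2C4 alone, described above.

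Cytochromes P450, which oxidise many of the compounds that UGT and GST enzymes then conjugate, were counted beside the members. All 4 measured P450 genes were of the CYP71B group. At 10 days 3 of the 4 were called, on the positive side, against 8.05% of all genes called on that side. CYP71B19 was the highest at 1.15 ± 0.52 (adjusted p = 0.0234) and CYP71B20 the lowest of the called genes at 0.83 ± 0.39 (adjusted p = 0.0372). The median of the 4 was 0.89. Cross-hybridisation among these close relatives was not tested. With so few genes, and of a single group, no more than this count can be set against the 4 of 37 members. At 21 days 3 of them were measured, none was called and their median was -0.21.

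At 21 days 30 of the 37 members could be tested: 12 UGT, 6 GST, 6 ALDH and 6 SCPL genes. UGT85A4 had a value on 3 of the 4 arrays only, and UGT74D1, UGT87A2, UGT88A1, GSTF4, GSTU20 and ALDH7B4 were not measured. By limma none was called, as none of all 2913 genes was (0%). At an unadjusted p under 0.05 stood 1 member (3.33%) and 266 of all genes (9.13%). The lowest adjusted p of a member was 0.536. The arrays of this age also resembled each other little, with correlations between arrays across all genes from -0.07 to 0.35 and across the members from -0.31 to 0.17.

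UGT71D1 was the member with that lowest p. It had -0.35, -0.89, -0.91 and 0.02 on arrays b100, b90, t100 and t90, so 3 arrays were clearly negative and 1 was near 0 (mean -0.53 ± 0.45). UGT72E2 had 0.28, -0.56, -0.20 and -0.47 (mean -0.24 ± 0.38, adjusted p = 0.771). UGT76B1 stayed on the positive side in the mean, 0.30 ± 0.88 (adjusted p = 0.797), but with arrays between -0.65 and 1.22. UGT85A2 had a mean of 0.20 ± 0.25.

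GSTU27 had -0.08, 0.16, 0.37 and 0.63 at this age, and its mean of 0.27 ± 0.30 was the highest of the GST genes (adjusted p = 0.727). GSTU26 came next at 0.16 ± 0.95. The lowest were GSTF3, at -0.24 ± 0.50 and with 1 EST on each side of 0, and GSTL3, at -0.20 ± 0.24. No GST gene lay on one side on all 4 arrays.

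ALDH11A3 (0.37 ± 0.65) and ALDH2C4 (0.34 ± 0.45) had the highest ALDH means, and ALDH3F1 (-0.29 ± 0.32) and ALDH10A8 (-0.17 ± 0.44) the lowest. Among the SCPL genes scpl29 was highest at 0.36 ± 0.31 and scpl26 lowest at -0.40 ± 0.37. SCPL49 had 0.33, 0.17, 0.18 and 0.09, positive on all 4 arrays, with a mean of 0.19 ± 0.10 (adjusted p = 0.786). Those values average 2 ESTs, each with arrays on both sides of 0 (-0.27 to 1.03 and -0.38 to 0.61). SCPL34 was at -0.31 ± 0.60. SCPL49 and scpl26 were the 2 members on one side on all arrays (6.67%), against 16.9% of all genes (8.51% positive and 8.38% negative). The median of the members was 0.07, beside 0.02 for all genes.

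**Figure D3:**
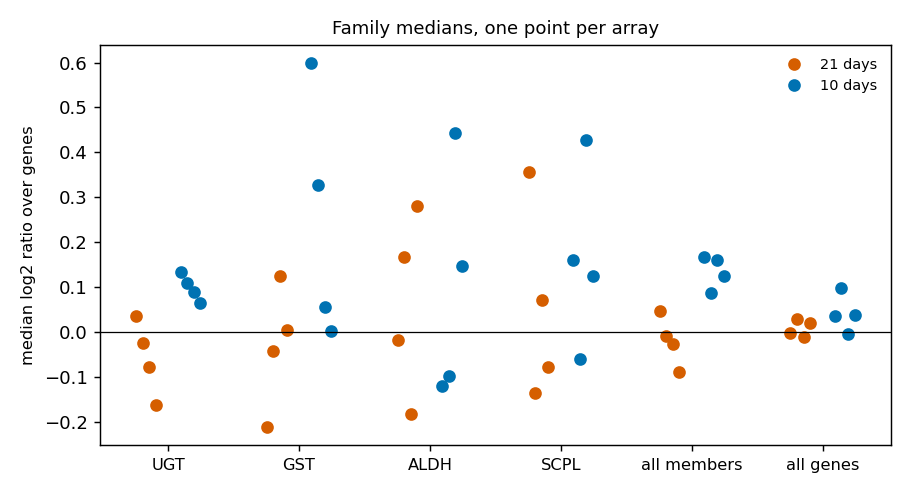
Medians of the UGT, GST, ALDH and SCPL genes and of all genes are plotted as log2 ratios, 1 point per array, with the 21-day arrays left of the 10-day arrays. At 10 days the GST medians spread between 0.00 and 0.60 and the UGT medians between 0.06 and 0.13.

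The difference between ages, 21 minus 10 days, was tested directly over the 2913 genes measured at both. It was called for 2 of the 30 members, SCPL49 and UGT72E2, which is 6.67%, beside 3.47% of all genes (1.30% with a positive and 2.16% with a negative difference). SCPL49 had a mean of 0.19 ± 0.10 at 21 days and of -1.13 ± 0.34 at 10 days. Averaged over its ESTs, all arrays lay above 0 at 21 days and all below 0 at 10 days. The difference was 1.32 (95% interval 0.76 to 1.88, limma adjusted p = 0.0177). It kept its call with any of the 8 arrays left out, and missed it under 1 of the 9 ways to pair the arrays as blocks (adjusted p = 0.0506). The same 2 ESTs were on both array types, and at 21 days each had arrays on both sides of 0 (-0.27 to 1.03 and -0.38 to 0.61). One gave 0.24 at 21 days and -2.09 at 10 days, a difference of 2.33 (adjusted p = 0.0139 with ESTs as units), and the other gave 0.15 at 21 days and -0.16 at 10 days, a difference of 0.31 (adjusted p = 0.614).

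UGT72E2 had a mean of -0.24 ± 0.38 at 21 days and of 0.93 ± 0.31 at 10 days. Its highest array at 21 days, 0.28, was below its lowest at 10 days, 0.58. The difference was -1.17 (95% interval -1.79 to -0.56, limma adjusted p = 0.0441). It kept its call without array 61 or b100, but not without any of the other 6 arrays, where the adjusted p ran from 0.0814 (without array 60) to 0.115 (without array 56). Under 3 of the 9 ways to pair the arrays as blocks the adjusted p was 0.0508, 0.0623 and 0.100. Tested against a 1.2-fold change in place of 0 (limma's treat), the adjusted p was 0.113. At 21 days UGT72E2 was also not above its relatives, with UGT72E2 minus UGT72E3 at -0.23 ± 0.61 (exact permutation p = 0.375) and UGT72E2 minus UGT72E1 at -0.38 ± 0.70 (exact p = 0.5).

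GSTU27 and UGT76B1, called at 10 days, had differences of -0.89 (95% interval -1.53 to -0.26, adjusted p = 0.108) and -0.61 (-1.47 to 0.24, adjusted p = 0.387). Whether these genes differ between the ages is therefore not settled by the test. In the ALDH family the largest absolute difference was that of ALDH2C4, 0.67 (-0.14 to 1.49, adjusted p = 0.312). On the EST of ALDH2C4 found on both array types it was 0.21 (adjusted p = 0.827 with ESTs as units), below the 0.54 of the EST that ALDH10A9 has on both. UGT71C4 had a difference of 0.75 (0.18 to 1.32, adjusted p = 0.122), or 0.14 with the local median removed, and the gap between UGT71C3 and UGT71C4 was -0.01 ± 0.44 at 21 days.

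Means lay on opposite sides at the 2 ages for 18 of the 30 members and for 1409 of all 2913 genes. The absolute mean was smaller at 21 days for 21 members and for 1889 of all genes. The median difference was -0.24 over the members and -0.02 over all genes, and by family it was -0.26 for UGT, -0.36 for GST, 0.09 for ALDH and -0.18 for SCPL genes. In the GST family all 6 differences were negative, with none called. They come from the same arrays, so their signs are not separate evidence.

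**Figure D4:**
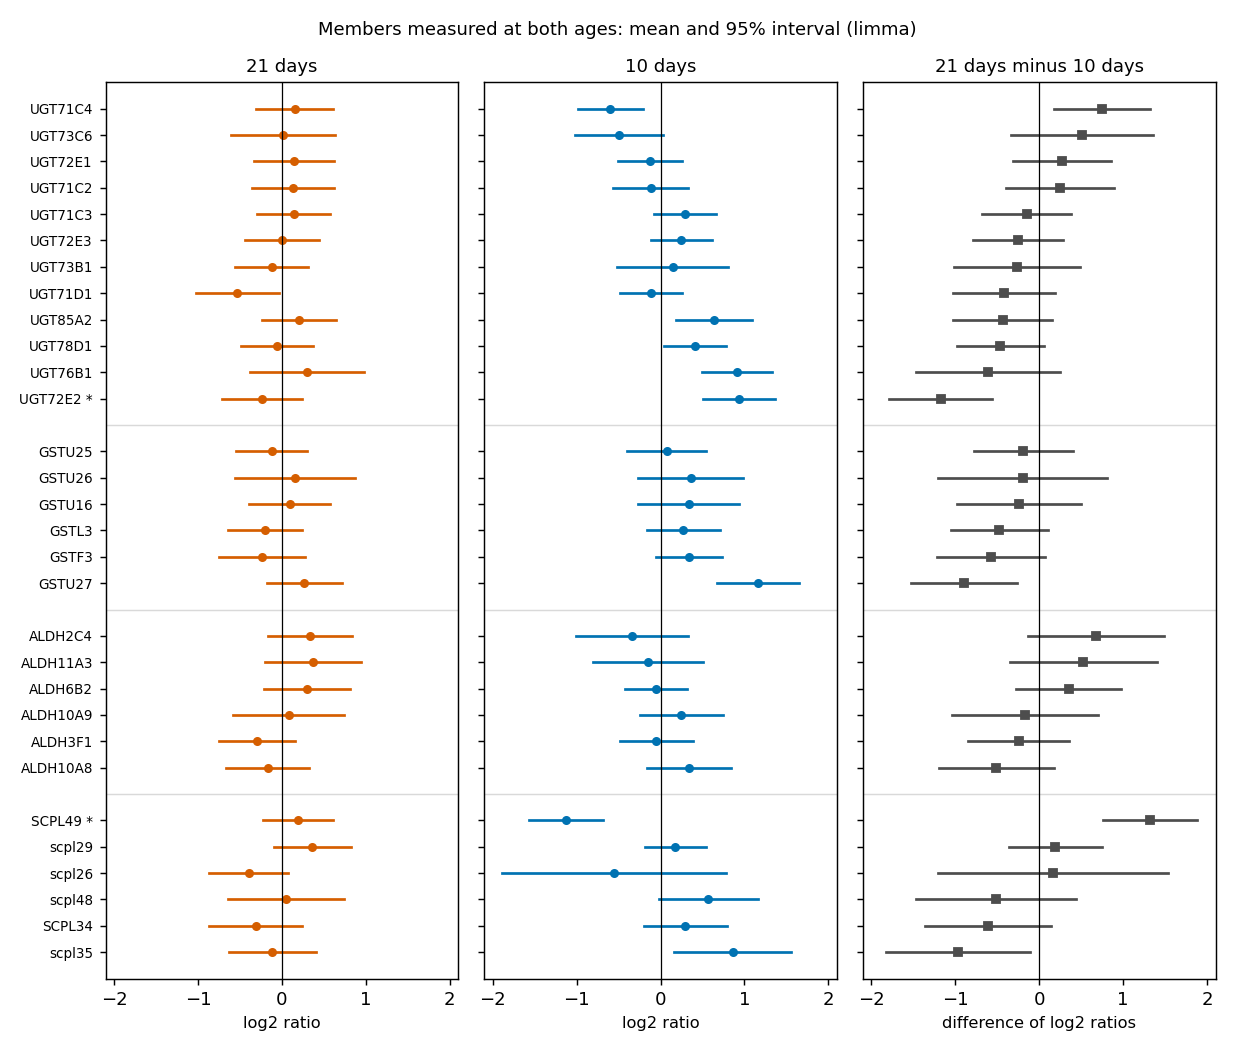
Means of the members with 95% limma intervals are plotted as log2 ratios in 3 panels, for 21 days, for 10 days and for the difference 21 minus 10 days. SCPL49 and UGT72E2 are the called differences, at 1.32 and -1.17.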

How the data were processed

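The deposited columns hold log10 channel ratios. No source states the base, and it was read from the numbers: undoing a base-10 log on 7 arrays returned ratios of 3 decimals in 100% of cases under 3 (tolerance 0.01 of a thousandth). On array 56, 96.9% of values had at most 2 decimals. The authors' scanner, dyes, background correction, dye normalization and spot filters were not given in the sources used here. The deposited array medians were within 0.000435 of 0.

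Values were converted to log2, centred on each array's median and averaged over the one-gene ESTs of a gene. The platform annotation paired 5216 of 11965 ESTs with a single gene at 10 days and 3910 of 8829 at 21 days, and 5209 and 3905 of these found a current name in RefSeq's TAIR10.1 gene table. Genes with a value on all 4 arrays were tested with limma 3.58.1 (lmFit, eBayes, R 4.3.3) for each age, and over 8 arrays for the difference between ages. Scripts were tested on simulated data. Precision is limited by the number of arrays, and the labels do not say that arrays came from separate plants.

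The text names every called member, the 3 highest and 3 lowest 10-day means, the 2 highest and 2 lowest 21-day means and the largest difference of each family, and any member with 4 or more ESTs, of which there was none. Other members are given so that all 37 are accounted for. Of the 11 gene lists, those for vacuolar transport, xenobiotic and TGA response, and pathogenesis had 0 measured genes. Members and lists were chosen with earlier results of these data known. Alternatives covered centring, scaling, quantile normalization, local medians, EST handling, symbols, thresholds, array pairings and left-out arrays. Local medians were taken over 36 spots on either side in order of the deposited spot identifiers.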

Additional observations from a re-analysis of the deposited data

Results flagged for a closer look

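The gene scpl29 stood at -0.0184 on array 57 at 10 days, while the other 3 arrays lay between 0.21 and 0.26. The gap was a larger part of the range than Dixon's 95% critical value for 4 samples allows. Of 37 members examined in this way at 10 days 1 was picked out, and of 30 at 21 days 0, where chance alone picks about 1 in 20.

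The difference between ages was called for SCPL49, at 1.32 (21 minus 10 days, limma adjusted p = 0.0177), and for UGT72E2, at -1.17 (adjusted p = 0.0441). Age and array type cannot be told apart in either.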

How the results depend on the processing

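Of the 37 members, 4 were called at 10 days and stayed so without centring, with scaling between arrays, quantile normalization, medians over ESTs, robust variance moderation, the platform's own symbols, or a value on at least 3 arrays. With local medians removed 6 were called (781 of all genes, against 459), adding scpl35 and UGT78D1, and with ESTs as units 5 (2031 of 11956 ESTs), adding 1 EST of ALDH10A9. By limma's treat at 1.2-fold 2 were called (GSTU27 and SCPL49, 185 of all genes), and 2 also lay past 1.5-fold on one side on all arrays without a test (246 of all genes). With 1 array left out 1 to 2 were called, of 99 to 195 genes. For the difference between ages 2 were called (3.47% of all genes), 1 by treat (SCPL49, 53 of all genes), and 1 to 2 with 1 array left out (40 to 92). Shared ESTs as units, chosen after seeing the data, also gave 2 (196 of 3951 ESTs).

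No paired analysis was possible because the ages share no array labels. Which arrays share an experiment is not stated, so every pairing was run. With 56 and 57 as a pair 5 members were called at 10 days as a random block, adding UGT71C4 (561 of all genes), and 5 averaged, adding scpl35 (535). UGT71C4 was not called when these pairs were averaged. With 56 and 60 as a pair 4 were called either way (263 and 335 of all genes). With 56 and 61 as a pair 23 were called as a block, where the within-pair correlation was -0.80, and 18 averaged (2021 and 1533 of all genes). For the difference, 9 combinations of pairs as blocks gave counts from 0 to 8, beside 29 to 812 of 2913 genes. With 56 and 57 paired, pairing b100 with t100 gave 1 (67 genes, UGT72E2 adjusted p = 0.0623). With 56 and 60 paired, b100 with b90 gave 1 (84 genes, UGT72E2 adjusted p = 0.0508), and b100 with t100 gave 0 (29 genes, SCPL49 adjusted p = 0.0506, UGT72E2 0.100). With 56 and 61 paired, b100 with b90, t100 or t90 gave 5, 4 and 8, beside 812, 455 and 791 genes. At 21 days 0 members were called by limma under every setting, and 48 of all genes with b100 and b90 averaged as a pair.

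Signs were followed under the alternatives only for members that the naming rule above picked out, not for every member. Among those, signs turned only for genes uncalled in the comparison at hand. At 21 days these were UGT73C6 with scaling (-0.0122) and quantile normalization (-0.0276), and with local medians removed GSTL3 (0.0442), ALDH10A9 (-0.14) and UGT71C4 (-0.066). At 10 days these were ALDH6B2 with EST medians (0.0169), and with local medians removed ALDH11A3 (0.015), GSTU25 (-0.0877) and ALDH3F1 (0.0228). On ESTs shared by both array types ALDH10A9 had -0.46 at 10 days and a difference of 0.54, ALDH6B2 had 0.26 and ALDH2C4 had 0.13 at 10 days. With 1 array left out the 10-day means ran from -0.403 to 0.0671 for ALDH11A3, -0.0803 to 0.444 for GSTU20, -0.0989 to 0.199 for GSTU25 and -0.198 to 0.048 for ALDH3F1. The 21-day means ran from -0.21 to 0.54 for GSTU26, -0.00379 to 0.618 for UGT76B1, -0.311 to 0.0316 for ALDH10A8, -0.30 to 0.31 for ALDH10A9, -0.28 to 0.10 for scpl35, -0.25 to 0.44 for scpl48 and -0.36 to 0.18 for UGT73C6. Differences ran from -0.544 to 0.0637 for ALDH10A9, -0.57 to 0.19 for GSTU26 and -0.29 to 0.89 for scpl26. Apart from the ESTs that the shared set leaves out, the cause was not tested.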
